A study of Mus musculus with 48 samples.

Results

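RNA-seq counts of 9 genes encoding BMP and activin ligands and their antagonists were followed in the thoracic aorta of 48 mice. The genes were taken by name from the 18782 genes of the count table: the BMP ligands Bmp2, Bmp4 and Bmp6, the activin subunits Inhba and Inhbb, and the antagonists Bmper, Grem1, Fst and Fstl1. All were wild-type C57BL/6J mice, with 1 library per mouse. MaCon (n = 10) and FeCon (n = 10) were male and female controls on normal drinking water. The other groups drank 0.4% β-aminopropionitrile (BAPN), an inhibitor of the lysyl oxidase enzymes that cross-link collagen and elastin, for 28 days from 3 weeks of age. MaNonAD (n = 4) and FeNonAD (n = 8) had no detectable lesion after BAPN, and MaAAD (n = 7) and FeAAD (n = 9) had an aortic dissection or aneurysm. Mice were placed in NonAD or AAD by their outcome and had survived to the end of the treatment, so mice with a fatal rupture were not sampled.

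BMPs and activins are secreted dimers of the TGF-β superfamily. They bind pairs of serine/threonine kinase receptors, after which BMPs act mainly through SMAD1, SMAD5 and SMAD9 and activins through SMAD2 and SMAD3, and secreted antagonists bind the ligands and keep them from their receptors. In the vessel wall, BMP signalling is known for its part in endothelial function, smooth muscle phenotype and calcification.

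Inhba and Inhbb encode alternative β subunits of activin, and between AAD and Con their RNA moved in opposite directions in both sexes, while Bmper had the largest rise among the tested members. The sequences just upstream of these 3 genes are therefore shown, 5′ to 3′, for the 250 bases before the annotated start. They were taken from RefSeq for GRCm38.p6, which is an earlier build than the GRCm39 named in the submitters' processing notes, and 7 of the 9 members had an entry (not Bmp2 and Fst). Bmper lies on the + strand (chr9:23222826-23223075), Inhba on the + strand (chr13:16011601-16011850) and Inhbb on the - strand (chr1:119422249-119422498). Capitals mark matches to 5 motifs searched on both strands.
Bmper: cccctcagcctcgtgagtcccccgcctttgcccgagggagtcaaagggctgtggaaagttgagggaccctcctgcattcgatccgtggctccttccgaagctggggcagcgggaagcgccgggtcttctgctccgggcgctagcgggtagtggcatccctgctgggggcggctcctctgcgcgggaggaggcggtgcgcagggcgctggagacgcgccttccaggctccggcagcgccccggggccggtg
Inhba: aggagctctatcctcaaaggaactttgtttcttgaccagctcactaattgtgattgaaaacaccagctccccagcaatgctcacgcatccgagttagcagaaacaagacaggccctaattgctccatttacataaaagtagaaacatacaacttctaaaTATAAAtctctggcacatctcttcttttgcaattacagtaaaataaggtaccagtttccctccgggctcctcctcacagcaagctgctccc
Inhbb: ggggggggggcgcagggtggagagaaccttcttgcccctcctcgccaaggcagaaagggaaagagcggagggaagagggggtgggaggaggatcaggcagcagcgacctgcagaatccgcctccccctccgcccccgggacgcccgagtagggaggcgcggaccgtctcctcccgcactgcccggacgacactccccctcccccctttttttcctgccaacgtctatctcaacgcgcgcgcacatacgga
The motifs were AP-1 (TGANTCA), present in 6.73% of all 32536 RefSeq stretches of the same length, the SMAD GC-rich element (GGCGCC, 9.65%), the SMAD box (CAGAC, 42.2%), the TATA box (TATAAA, 12.3%) and an E-box (CAGCTG, 13.05%). The Inhba stretch held 1 TATA box match, at positions -91 to -86 from the start, and those of Bmper and Inhbb held no match to these letters. Inhba also differed in composition, with 43.2% GC and 3 CpG dinucleotides, against 71.6% GC and 24 CpG in Bmper and 68% GC and 21 CpG in Inhbb. The median over all stretches was 52.4% GC.

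Library totals ranged from 13548003 to 17281262 counts. Levels are in CPM (read counts brought to a common depth by TMM scaling). A gene is said to have risen or fallen where edgeR's quasi-likelihood test gave a Benjamini-Hochberg adjusted p under 0.05 over 14431 tested genes, and it is called a DEG where its absolute log2 fold change was also at least 1. Of the 9 members, 8 passed the filter on low counts and Grem1 did not. The 8 smooth muscle markers that define the aortic wall were detected, with a summed level of 11830 to 60210 CPM per library. In both sexes all 8 fell and all 8 macrophage markers rose between AAD and Con. FeAAD5 and FeAAD9 stood apart from the other FeAAD libraries, with the lowest endothelial marker sums of all groups (369 and 284 CPM). Results of the members that rest on them are given with and without them. The other genes of the pathway are given with them only. FeAAD2 stood apart in red cell markers, with a sum of 26920 CPM against a FeAAD median of 640.4 CPM, and all 5 tested red cell markers rose between FeAAD and FeCon.

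The members covered a wide range of levels. To compare genes, CPM was divided by the length of the longest annotated transcript. Fstl1, a secreted glycoprotein of the follistatin family, was the most abundant at a mean of 424 CPM per kilobase, 12.4 times the level of Bmp4, and lay above Bmp4 in 48 of 48 libraries. Bmp4 averaged 34.3 CPM per kilobase, above Bmp6 (14.5) in 48 of 48 libraries. Bmp6 lay above Inhba (9.84) in 42 libraries and Inhba above Fst (7.85) in 39. Inhbb (2.63), Bmp2 (2.29) and Bmper (2.05) were close to each other, as Inhbb lay above Bmp2 in 31 libraries and Bmp2 above Bmper in 34. Fst lay above Inhbb in 47 libraries. Grem1, an antagonist of the DAN family, was at 0.0529 CPM per kilobase, with 0 to 15 counts per library, below Bmper in 48 of 48.

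**Figure D1:**
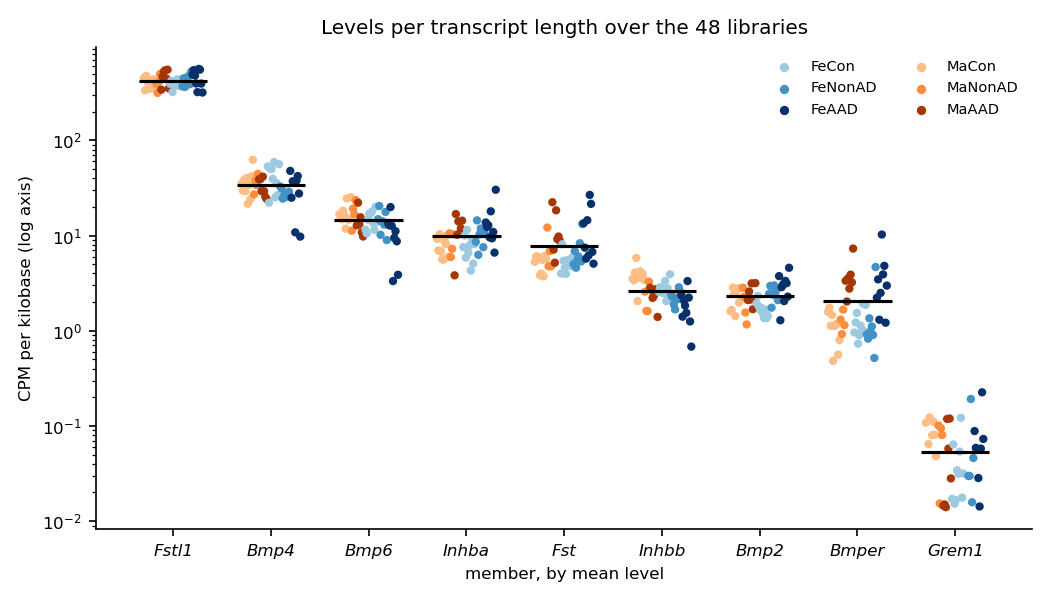
Level of each member in CPM per kilobase of its longest transcript on a log axis, with 1 point per library coloured by group and a black line at the mean over 48 libraries; libraries at 0 counts of Grem1 are not drawn. Fstl1 lies above all other members in every library, Grem1 lies below them, and the middle members overlap.

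Bmper encodes a secreted BMP-binding protein known to inhibit or enhance BMP signalling depending on its dose. It was the tested member that changed most with disease. In females, Bmper had a lowest, median and highest level of 2.77, 4.05 and 7.30 CPM in FeCon, 1.96, 3.59 and 17.7 CPM in FeNonAD, and 4.60, 11.3 and 38.9 CPM in FeAAD. In males it had 1.83, 4.34 and 6.61 CPM in MaCon, and 7.69, 12.7 and 27.7 CPM in MaAAD. The 4 MaNonAD libraries had 4.97, 3.50, 6.31 and 4.34 CPM. Every MaAAD library was above every MaCon and every MaNonAD library. In females 7 of 9 FeAAD libraries were above the highest FeCon library, and FeAAD3 and FeAAD8 lay within the FeCon range.

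Between AAD and Con, Bmper rose by a log2 fold change of 1.56 ± 0.33 (approximate SE) in females and 1.73 ± 0.35 in males (adjusted p = 0.000136 and 9.06e-05), so that it was a DEG in both sexes. The female means were 13.75 ± 10.4 CPM for FeAAD (SD, n = 9) against 4.65 ± 1.57 CPM for FeCon (SD, n = 10), and the male means 14.15 ± 6.39 CPM for MaAAD (SD, n = 7) against 4.25 ± 1.57 CPM for MaCon (SD, n = 10). Without FeAAD5 and FeAAD9 the female change was 1.18 (adjusted p = 0.00279). Bmper did not pass between NonAD and Con, with log2 fold changes of 0.20 in females and 0.17 in males (adjusted p = 0.742 and 0.931). The female value turned to -0.38 without FeNonAD8 (adjusted p = 0.459), a library with far more Bmper than the rest of its group.

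Bmper also rose from FeNonAD to FeAAD, by 1.36 ± 0.35 (adjusted p = 0.00457). This call moved with single libraries that had high Bmper. FeNonAD8, at 17.7 CPM, lay above the other FeNonAD libraries, whose highest was 5.12 CPM, and without it this change was 1.94 (adjusted p = 3.23e-05). Without FeAAD5, which had the 38.9 CPM, the change was 0.99 (adjusted p = 0.039), and without FeAAD5 and FeAAD9 it was 0.97 (adjusted p = 0.0634). In a fit of these groups alone it was 1.37 and did not pass (adjusted p = 0.0706). From MaNonAD to MaAAD the change was 1.56 ± 0.47, with no overlap between the groups, but it did not pass (adjusted p = 0.0643). It did pass when DESeq2 was used (adjusted p = 0.0172) or MaAAD1 or MaAAD2 was left out (adjusted p = 0.0339 and 0.0431). Without MaAAD1 the change was 1.57 and its unadjusted p was 0.00224, against 0.00177 in the main fit. Without MaAAD7 the change was 1.31 (adjusted p = 0.211), and without MaNonAD1 it was 1.58 (adjusted p = 0.078).

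Fst encodes follistatin, which binds activins and holds them inactive. In females its lowest, median and highest levels were 11.6, 15.4 and 23.7 CPM in FeCon, 13.4, 16.9 and 38.5 CPM in FeNonAD, and 14.8, 21.8 and 78.1 CPM in FeAAD. In males they were 10.9, 16.4 and 17.85 CPM in MaCon, and 15.1, 26.8 and 65.4 CPM in MaAAD. The 4 MaNonAD libraries had 35.45, 13.9, 20.0 and 13.9 CPM. The rise was uneven among libraries: FeAAD1, FeAAD4, FeAAD6 and FeAAD7 were above the highest FeCon library while the other 5 FeAAD libraries were within its range, and 6 of 7 MaAAD libraries were above the highest MaCon library.

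Between AAD and Con, Fst rose by 1.17 ± 0.27 on the log2 scale in females and by 1.15 ± 0.28 in males (adjusted p = 0.000342 and 0.0011) and was a DEG in both. With 1 library left out at a time the rise always passed. Its lowest value was then 0.93 in females and 0.92 in males, under the DEG limit of 1. Without FeAAD5 and FeAAD9 the female change was 1.38 (adjusted p = 6.28e-05). The means were 34.8 ± 22.75 CPM for FeAAD (SD, n = 9) against 15.45 ± 3.45 CPM for FeCon (SD, n = 10), and 33.7 ± 18.5 CPM for MaAAD (SD, n = 7) against 15.2 ± 2.86 CPM for MaCon (SD, n = 10). From FeNonAD to FeAAD it rose by 0.80 ± 0.28 (adjusted p = 0.0404), a call that was lost when any of 10 of the 17 libraries was left out: FeNonAD1 to FeNonAD5, FeNonAD7, FeAAD1, FeAAD4, FeAAD6 and FeAAD7, with adjusted p up to 0.152 without FeAAD6. It was also lost in a fit of these groups alone (adjusted p = 0.136). The change was larger without FeAAD5 and FeAAD9 (1.00, adjusted p = 0.019) and without FeNonAD8 (1.00, adjusted p = 0.00905). From MaNonAD to MaAAD the change was 0.69 ± 0.37 (adjusted p = 0.305), and it was 1.08 without MaNonAD1 and 0.44 without MaAAD1. Between NonAD and Con it was 0.37 in females and 0.45 in males (adjusted p = 0.382 and 0.641). Without FeNonAD8, the library at 38.5 CPM, the female value was 0.17, and without MaNonAD1, at 35.45 CPM, the male value was 0.07.

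**Figure D2:**
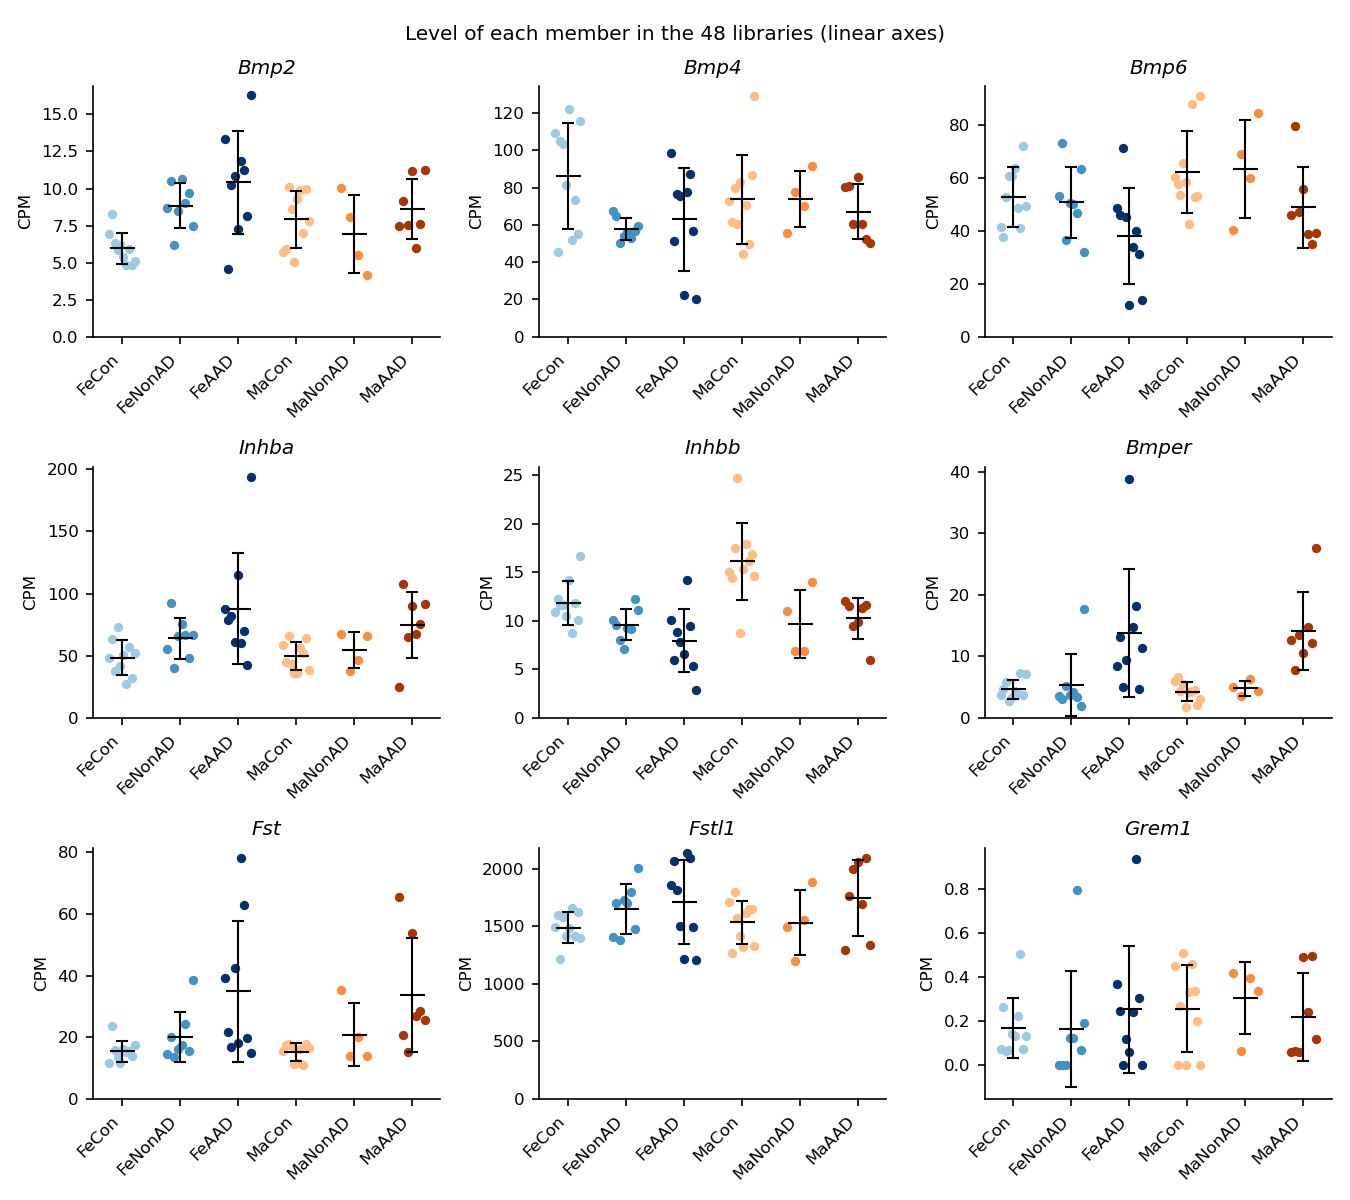
CPM of each member in the 48 libraries on linear axes, with 1 point per library, a horizontal mark at the group mean and bars of 1 SD. Bmper in the 7 MaAAD libraries lies between 7.69 and 27.7 CPM, above every MaCon and MaNonAD library, and the 2 FeAAD points lowest in Bmp4 and Bmp6 are FeAAD5 and FeAAD9.

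The other antagonists did not pass in any within-sex comparison. Fstl1 ranged from 1193 to 2132 CPM over the 48 libraries, and its largest change was between FeAAD and FeCon, 0.20 with an approximate 95% interval of -0.01 to 0.41 (adjusted p = 0.13). FeAAD5 and FeAAD9 had 1216 and 1205 CPM, the lowest levels of their group, and without these libraries the change was 0.33 (adjusted p = 0.00897). In males the change between MaAAD and MaCon was 0.19 (adjusted p = 0.211). Grem1 was not tested and gets no fold change. Its mean lay between 0.163 CPM in FeNonAD and 0.303 CPM in MaNonAD, it was at 0 counts in 3 MaCon, 3 FeNonAD and 2 FeAAD libraries, and 8 of 10 FeCon libraries had 3 counts or fewer.

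Inhba encodes the βA subunit of activin A. In females it had a lowest, median and highest level of 27.4, 49.3 and 73.2 CPM in FeCon, 40.1, 66.4 and 92.2 CPM in FeNonAD, and 42.3, 78.5 and 193.4 CPM in FeAAD. In males these were 35.7, 48.2 and 66.1 CPM in MaCon, and 24.4, 75.8 and 107.4 CPM in MaAAD. The 4 MaNonAD libraries had 67.5, 38.0, 46.4 and 65.7 CPM. In each sex 5 AAD libraries were above the highest control, and the groups overlapped. MaAAD1 went the other way and had the lowest Inhba of all 48 libraries.

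Between AAD and Con, Inhba rose by 0.86 ± 0.22 on the log2 scale in females and by 0.59 ± 0.23 in males (adjusted p = 0.00116 and 0.041), and it was a DEG in neither. FeAAD9 had the 193.4 CPM, and without FeAAD5 and FeAAD9 the female change was 0.52 (adjusted p = 0.0344). The male call was close to the threshold: it was lost when any of 9 of the 17 libraries was left out (MaCon2, MaCon4, MaCon5, MaCon6, MaCon10, MaAAD2, MaAAD4, MaAAD6 and MaAAD7), with adjusted p up to 0.118, and without MaAAD1 the change was 0.76 (adjusted p = 0.00437). Inhba did not pass between NonAD and Con (0.40 in females, 0.13 in males) or between AAD and NonAD (0.46 in females, 0.45 in males). The female change between AAD and NonAD was 0.22 without FeAAD9 and 0.11 without FeAAD5 and FeAAD9.

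Inhbb encodes the βB subunit, which forms activin B. Its lowest, median and highest levels were 8.71, 11.6 and 16.7 CPM in FeCon, 7.12, 9.435 and 12.2 CPM in FeNonAD, and 2.90, 7.83 and 14.15 CPM in FeAAD. In males they were 8.72, 15.7 and 24.7 CPM in MaCon, and 5.945, 11.3 and 12.05 CPM in MaAAD. The 4 MaNonAD libraries had 11.0, 6.88, 6.84 and 14.0 CPM. Of the MaCon libraries all but MaCon5 had at least 14.4 CPM, above the highest MaNonAD and MaAAD libraries, and 5 of 9 FeAAD libraries lay below the lowest FeCon library.

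Between AAD and Con, Inhbb fell by 0.58 on the log2 scale in females (SE 0.18, adjusted p = 0.00836) and by 0.65 in males (SE 0.20, adjusted p = 0.00715). FeAAD9 had the 2.90 CPM, and without FeAAD5 and FeAAD9 the female change was -0.42 and no longer passed (adjusted p = 0.0555). In males the NonAD change of -0.74, from 4 libraries, was no smaller than the AAD change but did not pass (SE 0.24, adjusted p = 0.155). Its unadjusted p was 0.00353, beside 0.0016 for the AAD change. The adjusted p depends on all tested genes, of which few passed between MaNonAD and MaCon. From MaNonAD to MaAAD Inhbb changed by 0.08 (adjusted p = 0.891). In females the NonAD change was -0.31 (adjusted p = 0.28).

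Bmp2, a ligand known for driving bone and cartilage programmes, rose after BAPN in females. In FeCon its lowest, median and highest levels were 4.84, 5.905 and 8.28 CPM, in FeNonAD 6.22, 8.84 and 10.65 CPM, and in FeAAD 4.58, 10.8 and 16.3 CPM. In males they were 5.06, 8.20 and 10.1 CPM in MaCon, and 5.99, 7.63 and 11.25 CPM in MaAAD. The 4 MaNonAD libraries had 10.1, 8.09, 5.52 and 4.14 CPM. In females 6 of 8 FeNonAD and 6 of 9 FeAAD libraries were above the highest FeCon library, and in males the groups overlapped broadly.

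Bmp2 rose by 0.56 ± 0.18 on the log2 scale between FeNonAD and FeCon (adjusted p = 0.0252) and by 0.80 ± 0.17 between FeAAD and FeCon (adjusted p = 0.000165), 2 comparisons that share the FeCon libraries. The first call was lost without FeNonAD2 or FeNonAD5 (adjusted p = 0.0505 and 0.0562). FeAAD2 had the 4.58 CPM, and without it the second change was 0.91 (adjusted p = 1.12e-05). In males the changes were -0.19 (adjusted p = 0.814) and 0.12 (adjusted p = 0.649), and they were -0.42 without MaNonAD1 and 0.04 without MaAAD7. The sex difference in these responses was tested as an interaction, male minus female, and did not pass, at -0.75 for NonAD (approximate 95% interval -1.31 to -0.19, adjusted p = 0.24) and -0.68 for AAD (-1.18 to -0.19, adjusted p = 0.156). Among mice without BAPN, MaCon lay 0.41 above FeCon (adjusted p = 0.0913), and this comparison passed without FeCon2 (adjusted p = 0.0496).

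Bmp4 and Bmp6, ligands made in the vessel wall by endothelium among other cells, did not pass in the within-sex comparisons. The mean of Bmp4 was 86.3 ± 28.5 CPM for FeCon (SD, n = 10), 57.75 ± 5.90 CPM for FeNonAD (SD, n = 8) and 63.0 ± 27.55 CPM for FeAAD (SD, n = 9). FeCon spread from 45.7 to 122 CPM and held the whole FeNonAD range of 50.5 to 67.6 CPM. The log2 change between FeNonAD and FeCon was -0.58 (adjusted p = 0.0702), and it passed in a fit of these groups alone (adjusted p = 0.0276), without FeCon2 (adjusted p = 0.0332) and in the fit without FeAAD5 and FeAAD9 (adjusted p = 0.0181). In males Bmp4 was at 73.8 CPM on average in both MaCon and MaNonAD and at 67.2 CPM in MaAAD.

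Bmp6 had means of 52.9 ± 11.3 CPM for FeCon (SD, n = 10) and 38.1 ± 18.3 CPM for FeAAD (SD, n = 9), a log2 change of -0.47 (adjusted p = 0.0632). FeAAD5 and FeAAD9 were lowest in both ligands, with 22.3 and 20.1 CPM of Bmp4 and 11.95 and 13.9 CPM of Bmp6. Without them the change between FeAAD and FeCon was -0.21 for Bmp6 (adjusted p = 0.359) and -0.20 for Bmp4 (adjusted p = 0.424), against -0.46 for Bmp4 with them (adjusted p = 0.0798). Bmp6 passed without FeAAD3, its highest FeAAD library at 71.5 CPM (-0.64, adjusted p = 0.00998), and without FeCon2 (-0.52, adjusted p = 0.0461), and Bmp4 passed without FeAAD1 (adjusted p = 0.0382) or FeCon2 (adjusted p = 0.0397). In males Bmp6 changed by -0.35 between MaAAD and MaCon (adjusted p = 0.235).

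**Figure D3:**
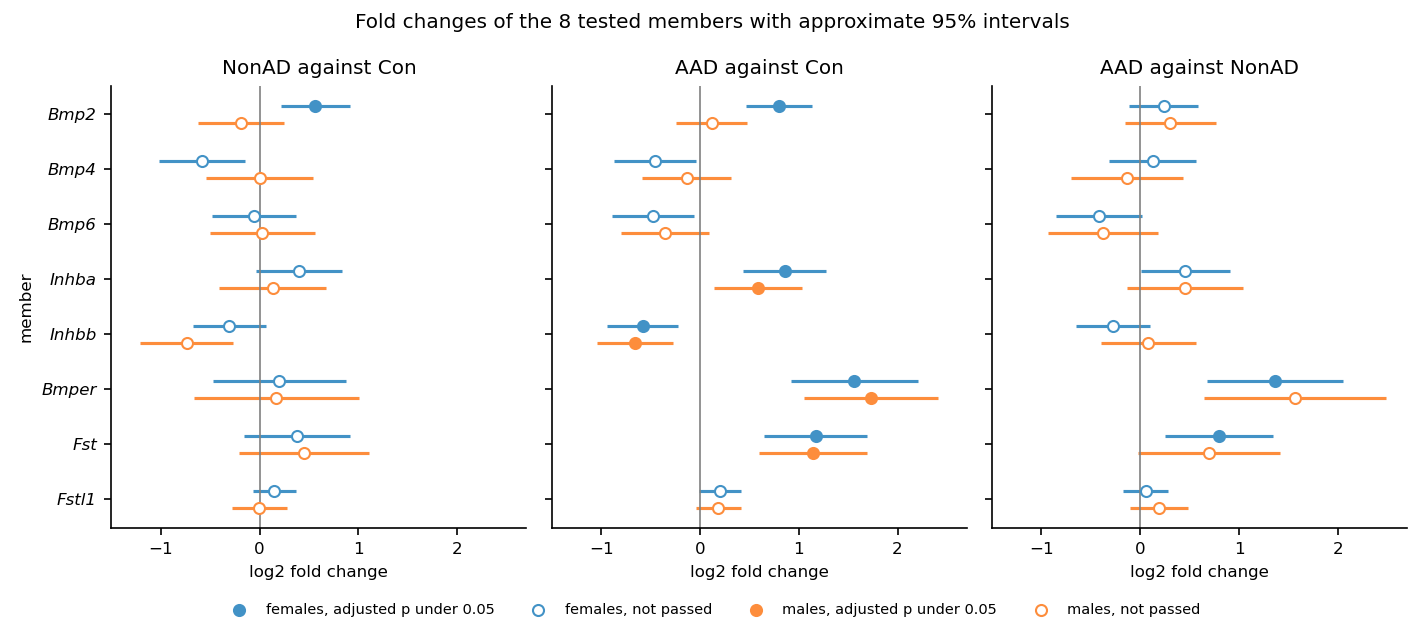
Log2 fold changes of the 8 tested members for NonAD against Con, AAD against Con and AAD against NonAD, with approximate 95% intervals; females are blue, males orange, and filled points had an adjusted p under 0.05. Bmper and Fst lie furthest to the right in both sexes for AAD against Con, and Inhba and Inhbb lie on opposite sides of 0.

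Counted together, 4 of the 8 tested members rose and 1 fell between FeAAD and FeCon, where 23.8% of all tested genes rose and 20.6% fell, and 2 were higher DEGs against 9.94% of all genes. Between MaAAD and MaCon 3 rose and 1 fell, where 18.9% of all genes rose and 16.1% fell, and 2 were higher DEGs against 9.18%. The median log2 change of the members was 0.50 in females and 0.15 in males, with medians of 0.00 and -0.03 over all tested genes. From FeNonAD to FeAAD 2 members rose and 0 fell, with 13.2% of all genes higher and 5% lower, and 1 was a higher DEG (6.79% of all genes).

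Between FeNonAD and FeCon 1 member rose and 0 fell, where 6.87% of all genes rose and 7.66% fell. Between MaNonAD and MaCon, with 4 NonAD libraries, 0 members passed in edgeR or DESeq2, 1 member (Inhbb) had an unadjusted p under 0.05, and 0.443% of all genes rose and 0.18% fell. From MaNonAD to MaAAD 0 members passed in edgeR and 1 (Bmper) in DESeq2, 1 had an unadjusted p under 0.05, and 0.388% of all genes rose and 0.0208% fell. In both male comparisons few genes of the whole table passed.

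No member differed between the sexes by the same rule. For MaCon against FeCon, 0 members passed in edgeR and in DESeq2 and 2 (Bmp2 and Inhbb) had an unadjusted p under 0.05, while 14.3% of all genes passed. Inhbb was 0.45 higher in MaCon (adjusted p = 0.0759), with 4 of 10 MaCon libraries above the highest FeCon library, and it passed in a fit of these groups alone (adjusted p = 0.0393) and without MaCon5 (adjusted p = 0.0393). For MaNonAD against FeNonAD and MaAAD against FeAAD 0 members passed with either tool and 0 had an unadjusted p under 0.05, where 0.0624% and 0.0901% of all genes passed. As to interactions with sex, of the NonAD change, of the AAD change and of the change between NonAD and AAD mice, 0 members passed with either tool, 1, 1 and 0 members had an unadjusted p under 0.05 (Bmp2 in the first and second), and 0.416%, 1.34% and 0% of all genes passed. For Bmper, the sex difference in the AAD response was 0.17 with an interval of -0.77 to 1.10, and for Fst -0.03 with an interval of -0.78 to 0.73.

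The members were read beside the other genes of the pathway, of which 87 were in the table and 74 were tested. Between FeAAD and FeCon 9 rose (12.2%) and 35 fell (47.3%), beside 23.8% and 20.6% of all tested genes. Between MaAAD and MaCon 9 rose (12.2%) and 14 fell (18.9%), beside 18.9% and 16.1% of all, so that the share that fell in males was near the background. The same shares of all genes stand beside the counts of the single pathway lists. Between FeNonAD and FeCon 4 of the 74 rose and 10 fell, beside 6.87% and 7.66% of all. For MaAAD against FeAAD 0 of the 74 passed, beside 0.0901% of all genes. The sex difference in the AAD response passed for 1 of the 74, beside 1.34% of all. For MaCon against FeCon 3 were higher and 8 lower in MaCon, beside 14.3% of all genes in either direction. Among the 14 tested ligands outside the members, between AAD and Con 5 rose and 4 fell in females and 4 rose and 1 fell in males. Gdf15, a stress-induced cytokine, rose by 1.08 in females and 1.24 in males (adjusted p = 0.0202 and 0.0133), at low levels. Its median and highest level were 3.78 and 20.1 CPM in MaAAD, against a highest level of 4.24 CPM in MaCon. In FeAAD they were 2.87 and 9.11 CPM, against a highest level of 4.18 CPM in FeCon. Gdf11, a ligand close to myostatin, rose by 1.21 (adjusted p = 1.53e-07) and 0.51 (adjusted p = 0.0206), and Gdf10 by 0.64 (adjusted p = 0.032) and 0.67 (adjusted p = 0.0442). Gdf11 also rose between FeNonAD and FeCon (0.78, adjusted p = 0.00202).

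Of the 17 other antagonists tested, 1 rose and 9 fell in females and 1 rose and 5 fell in males, the opposite direction to Bmper and Fst. Sost encodes sclerostin, known mainly as a WNT antagonist. Its means were 2042 ± 547 CPM for MaCon (SD, n = 10) and 685 ± 293 CPM for MaAAD (SD, n = 7), a log2 change of -1.58 (adjusted p = 2.1e-05), and 1225 ± 308 CPM for FeCon (SD, n = 10) and 746 ± 349 CPM for FeAAD (SD, n = 9), a change of -0.71 (adjusted p = 0.0199). Fstl3, a follistatin relative that binds activins, fell by 0.69 in females and by 0.53 in males (adjusted p = 6.77e-05 and 0.00384) while Fst rose. Wfikkn2, a protein that binds myostatin and Gdf11, fell by 1.10 (adjusted p = 1.14e-06) and 0.68 (adjusted p = 0.00275), and Bambi, a decoy receptor, by 0.46 (adjusted p = 0.00317) and 0.81 (adjusted p = 1.07e-05).

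Of the 15 receptors and co-receptors tested, 1 rose and 8 fell in females and 1 rose and 1 fell in males. Bmpr1b, a BMP receptor, fell by 1.23 on the log2 scale in females and by 0.99 in males (adjusted p = 7.42e-06 and 0.000639). Its mean was 27.2 ± 11.4 CPM (SD, n = 9) in FeAAD against 63.7 ± 12.7 CPM (SD, n = 10) in FeCon. Hjv, the BMP co-receptor hemojuvelin, rose by 1.20 (adjusted p = 0.00576) and 1.08 (adjusted p = 0.0201) at low levels, with means of 1.22 to 3.15 CPM in the Con and AAD groups. Of the 14 SMADs and regulators, 1 rose and 4 fell in females and 2 rose and 2 fell in males. Smad9, which carries BMP signals, fell by 1.21 (adjusted p = 4.32e-05) and 0.88 (adjusted p = 0.00545), and Smad2, which carries activin signals, rose by 0.20 (adjusted p = 0.0118) and 0.23 (adjusted p = 0.00984).

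Among 14 tested target genes of the pathway, 1 rose and 10 fell in females and 1 rose and 5 fell in males. Id2, a classical BMP target, had means of 146 ± 19.6 CPM for FeCon (SD, n = 10) and 71.4 ± 10.2 CPM for FeAAD (SD, n = 9), and every FeAAD library was below every FeCon library. It fell by 1.03 in females and by 0.58 in males (adjusted p = 5.75e-08 and 0.00173). Atoh8 fell by 1.09 (adjusted p = 1.29e-05) and 0.88 (adjusted p = 0.000891), and Msx2 by 1.10 (adjusted p = 0.00482) and 1.27 (adjusted p = 0.00358). The target that rose was Runx2, a transcription factor of bone formation, by 2.23 in females and 1.98 in males (adjusted p = 1.02e-08 and 3.75e-07), with every AAD library above every control of its sex. Between FeNonAD and FeCon, Runx2 rose by 1.02 (adjusted p = 0.0108), and Atoh8 and Id2 fell by 0.93 and 0.54 (adjusted p = 0.00157 and 0.00807). Of the other pathway genes named here, Fstl3 and Wfikkn2 fell in that comparison by 0.55 and 0.51 (adjusted p = 0.00731 and 0.0389), and Smad2 rose by 0.21 (adjusted p = 0.0342). The median change of the targets between AAD and Con was -0.52 in females and -0.34 in males.

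**Figure D4:**
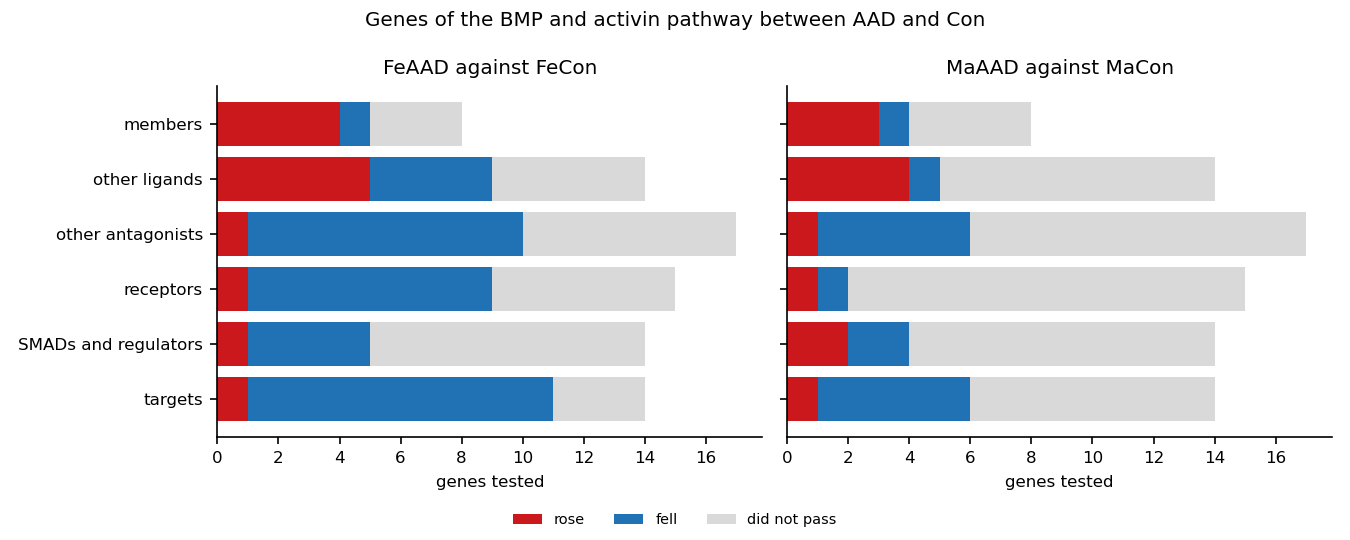
Number of tested genes that rose (red), fell (blue) or did not pass (grey) between AAD and Con, for the members and 5 other lists of the BMP and activin pathway, in females and males. Among the members 4 of 8 rose in females and 3 of 8 in males, while 10 of 14 targets fell in females and 5 of 14 in males.

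The genes most like each member across the 48 libraries differed between members. For each member, the 3 tested genes with a mean of at least 10 counts whose log2(CPM + 1) had the highest Pearson r were taken from 13710 genes, and r of the deviations from the group means is given in brackets. Bmper was most like Atp8b4 at r = 0.93 (0.88), Lyn at 0.93 (0.88) and Fcgr2b at 0.91 (0.82). Lyn, a kinase, and Fcgr2b, an Fc receptor, are known from leukocytes. Fst was most like Lgr5 at 0.91 (0.86), Col10a1 at 0.90 (0.87) and Gal3st1 at 0.89 (0.83), and Col10a1 is a collagen of hypertrophic cartilage. Their Spearman rho with Fst was lower, at 0.69, 0.56 and 0.74. Inhba was most like Itpripl2 at 0.86 (0.82), Hif1a at 0.86 (0.82) and Kpnb1 at 0.85 (0.82), of which Hif1a encodes the oxygen-regulated subunit of HIF. Bmp6 was most like Cytl1 at 0.81 (0.77), Vwf at 0.81 (0.82), which encodes the endothelial von Willebrand factor, and Vit at 0.79 (0.76), and without FeAAD5 and FeAAD9 these values were 0.63 (0.58), 0.60 (0.68) and 0.55 (0.49).

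Fstl1 was most like Ptgfrn at 0.83 (0.85), Fkbp9 at 0.83 (0.83) and Fut11 at 0.79 (0.79). Bmp4 was most like Aldh1a1 at 0.76 (0.71), Tmem204 at 0.74 (0.77) and Ndrg1 at 0.73 (0.70), and without FeAAD5 and FeAAD9 at 0.54 (0.43), 0.48 (0.53) and 0.60 (0.52). Bmp2 was most like Spry4, a feedback inhibitor of receptor kinases, at 0.73 (0.64), followed by Diras2 and Swap70 at 0.64. For Inhbb the closest was Runx1t1 at 0.70 (0.61), followed by Gpr137c at 0.70 (0.59) and C7 at 0.69 (0.37). Without FeAAD5 and FeAAD9 these values were 0.66 (0.60), 0.67 (0.58) and 0.56 (0.03). For Grem1, at a mean of 3.44 counts, r was 0.55 or lower, too weak at this depth to describe a pattern. Among the members themselves, Bmp4 and Bmp6 had the highest Pearson r, at 0.68 (0.69), but their Spearman rho was 0.47 and without FeAAD5 and FeAAD9 their r was 0.39 (0.44). Bmper and Fst were at r = 0.58 (0.27) with a rho of 0.59, and at 0.68 (0.45) without these libraries. Bmp6 and Bmper ran against each other, at -0.61 (-0.54) and at -0.50 (-0.45) without them. The points share library, depth and the cells in each piece of tissue, and these values are descriptions.

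Markers of other cell types moved with several members. Bmper followed the summed macrophage markers over the 48 libraries at r = 0.88 (0.74 for deviations from group means), and at 0.85 (0.67) without FeAAD5 and FeAAD9. The sums ranged from 275 to 656 CPM in FeCon, 356 to 1005 CPM in FeNonAD, 672 to 5890 CPM in FeAAD, 228 to 587 CPM in MaCon, 521 to 874 CPM in MaNonAD and 895 to 3994 CPM in MaAAD. FeAAD5 had the highest macrophage sum and the highest Bmper of all libraries, MaAAD7 the next highest of both, and FeNonAD8 the highest macrophage sum and Bmper of its group. Bmper also ran against the summed smooth muscle and Schwann cell markers, at r = -0.82 (-0.66) and -0.76 (-0.60), and with the fibroblast markers, at 0.63 (0.28). Their part in the rise of Bmper was not tested, and in bulk RNA a change in the number of cells of a type cannot be told apart from a change in RNA per cell.

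Fst followed the 6 cartilage markers at r = 0.85 (0.76). Their sums ranged from 115 to 189 CPM in FeCon, 152 to 420 CPM in FeNonAD, 174 to 1012 CPM in FeAAD, 121 to 198 CPM in MaCon, 182 to 400 CPM in MaNonAD and 238 to 595 CPM in MaAAD, and between AAD and Con 4 of 6 rose and 1 fell in females, and 4 rose and 2 did not pass in males. FeAAD6 had the highest Fst and the highest cartilage sum of all libraries, and the highest of both in the other BAPN groups were in FeNonAD8, MaNonAD1 and MaAAD1. Fst also ran against the smooth muscle markers, at -0.73 (-0.51), and with the fibroblast markers, at 0.71 (0.51). Bmp2 was at 0.53 (0.42) to the cartilage markers and at -0.13 (-0.43) to the red cell markers. Bmp6 and Bmp4 followed the endothelial markers, at r = 0.78 (0.82) and 0.72 (0.67), and without FeAAD5 and FeAAD9 at 0.60 (0.70) and 0.50 (0.42). Of these 8 markers 2 rose and 1 fell between FeAAD and FeCon and 3 rose and 0 fell between MaAAD and MaCon. Neutrophil markers moved with several members: Bmper was at r = 0.79 (0.59) to them, Bmp6 at -0.67 (-0.66) and Inhba at 0.61 (0.47), and without FeAAD5 and FeAAD9 these values were 0.77 (0.50), -0.35 (-0.28) and 0.46 (0.29). The neutrophil sums reached 888 CPM in FeAAD5, 202 CPM in FeAAD9 and 241 CPM in MaAAD7 against at most 10.6 CPM in any Con or NonAD library. None of these markers was at 0 in every library of a group, and the part of these cells in the changes of the members was not tested.

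**Figure D5:**
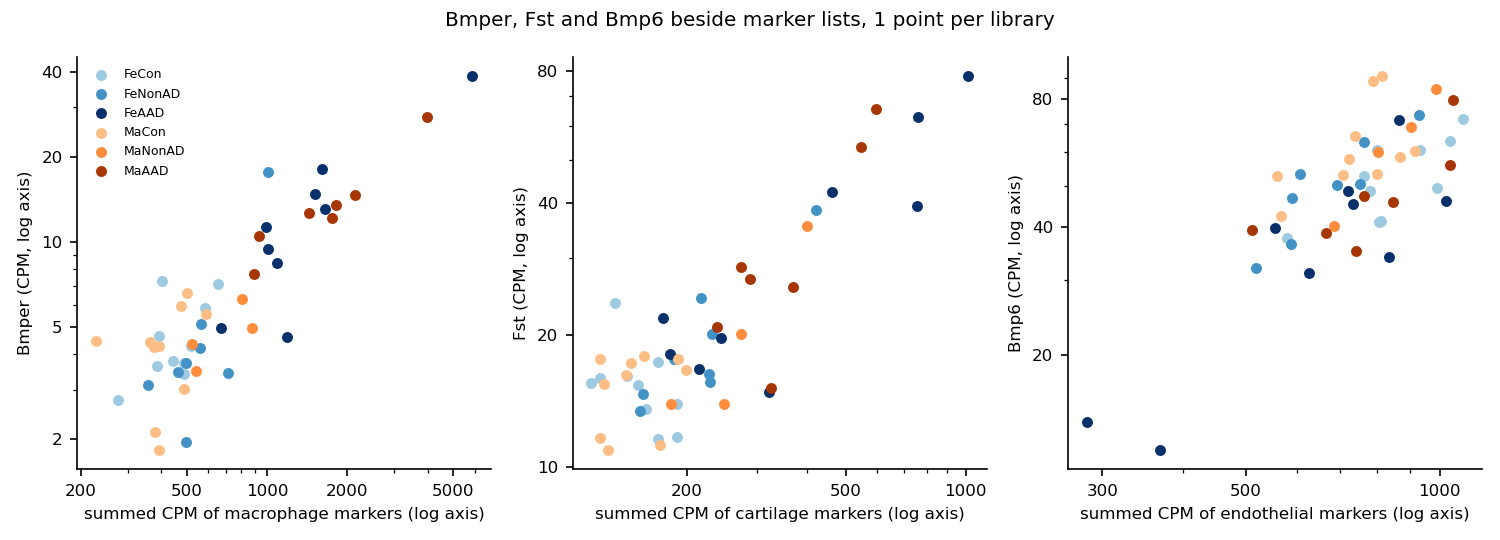
Level of Bmper, Fst and Bmp6 in CPM against the summed CPM of macrophage, cartilage and endothelial markers, with 1 point per library on log axes and colours by group. The FeAAD and MaAAD points with most Bmper have most macrophage marker RNA, the FeAAD point highest in Fst (78.1 CPM) is highest in cartilage markers, and the 2 FeAAD points lowest in Bmp6 are lowest in endothelial markers.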

How the data were processed

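The authors prepared strand-specific mRNA libraries from lesioned thoracic aortic segments, and mice of a group shared cages. Bowtie2, RSEM 1.3.1 and GRCm39 are named in the submitters' processing notes, without their order. The deposited table holds expected counts per gene, which the authors did not scale to library size, and 4.99% of its values were not whole. They were rounded to whole counts, although the design had spoken of counts. edgeR 4.0.16 in R 4.3.3 was run on all 48 libraries with filterByExpr, TMM scaling, 1 mean per group, robust quasi-likelihood tests and Benjamini-Hochberg adjustment over 14431 genes, in 9 pairwise comparisons and 3 sex interactions. SEs are approximate, computed from each fold change and its F value, and the 95% intervals are normal approximations from them. Totals limit precision for members with few counts, such as Grem1, and replicates were separate mice. The steps were tested on simulated data with known fold changes. Alternatives tried were a replicate block, a fit of the compared groups alone, the DEG rule, leaving out each library, dropping the low-count filter or the robust estimation, scaling edgeR by DESeq2 size factors, and DESeq2 1.42.0 itself. Levels by total counts in place of TMM moved no group mean of a member by 1 SD. Leaving out FeAAD5 and FeAAD9 together was chosen after seeing the data. Transcript lengths came from GENCODE M21. The members and the lists of pathway and marker genes were chosen with earlier results of these data known. The named pathway genes were up to 4 per list with adjusted p under 0.05 between AAD and Con in both sexes and a mean of at least 10 counts, by mean absolute fold change, and any with such a p in both NonAD comparisons or in a sex interaction. A gene that met this rule is not reported here. Tables were handled with Python 3.11.15 and pandas 2.3.3, and figures drawn with matplotlib 3.10.9.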

Additional observations from a re-analysis of the deposited data

Results flagged for a closer look

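A library was singled out where its gap to the nearest other library of its group was large for the range of the group by Dixon's test at the 95% level. Of 54 combinations of member and group, 7 had such a library. Chance alone flags about 1 in 20 groups of independent normal values. Levels from few counts, such as those of Grem1, are not normal, so no excess is read from this number. FeNonAD8 had 17.7 CPM of Bmper, against 5.12 CPM in the next FeNonAD library, and it also held the highest macrophage marker sum of FeNonAD (1005 CPM). MaAAD1 had 24.4 CPM of Inhba, against 64.9 CPM in the next MaAAD library, the highest fat cell marker sum of all libraries (3012 CPM, against a MaAAD median of 489.7 CPM) and the lowest smooth muscle marker sum (11830 CPM). Over the 48 libraries Inhba ran against the fat cell sum at r = -0.54 (-0.56 for deviations from group means) and against the smooth muscle sum at -0.43 (-0.07), and the part of these cells was not tested. Inhbb was low in MaCon5, at 8.72 CPM against 14.4 CPM in the next MaCon library, and in MaAAD7, at 5.945 CPM against 9.43 CPM in the next MaAAD library. Grem1 was high in FeCon8 (0.506 CPM), FeNonAD6 (0.796 CPM) and FeAAD7 (0.936 CPM), which are 7, 13 and 15 counts.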

How the results depend on the processing

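The counts of members that rose or fell in edgeR were 1 between FeNonAD and FeCon, 5 between FeAAD and FeCon, 4 between MaAAD and MaCon, 2 between FeAAD and FeNonAD and 0 elsewhere. With DESeq2's size factors and without robust estimation every count stayed as it was. With DESeq2 the count was 1 between MaAAD and MaNonAD (Bmper) and otherwise unchanged. Without the filter on low counts it fell to 1 between FeAAD and FeNonAD. In fits of the compared groups alone it was 2 between FeNonAD and FeCon, 0 between FeAAD and FeNonAD and 1 between MaCon and FeCon. By the DEG rule it was 0 between FeNonAD and FeCon, 2 between FeAAD and FeCon, 2 between MaAAD and MaCon and 1 between FeAAD and FeNonAD. Without FeAAD5 and FeAAD9 it was 1 between FeAAD and FeNonAD, 1 between MaAAD and MaNonAD (Bmper), 2 between FeNonAD and FeCon (Bmp2 and Bmp4) and 1 between MaCon and FeCon (Inhbb), and between FeAAD and FeCon it stayed at 5 with Fstl1 in place of Inhbb. Leaving out 1 library at a time gave 0 to 2 members between FeNonAD and FeCon, 5 to 7 between FeAAD and FeCon, 3 to 4 between MaAAD and MaCon, 1 to 3 between FeAAD and FeNonAD, 0 to 1 between MaAAD and MaNonAD and 0 to 1 between MaCon and FeCon. No fold change of a called member changed sign under these alternatives. The cause of these shifts was not tested.

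Replicate numbers were not taken as pairs, and mice had been placed in NonAD or AAD by their outcome. No pair of groups had all correlations of deviations over 0.1, and the highest mean correlation was 0.16 (MaAAD and FeAAD). This rule asks for every single correlation, so it cannot exclude a weaker pairing. With the replicate number as a block, the count was 1 between FeAAD and FeNonAD, as Fst no longer passed (adjusted p = 0.0807), and 6 between FeAAD and FeCon, where Bmp6 passed (adjusted p = 0.0461). Depth limits Grem1, at a mean of 3.44 counts. Floors and counts cover counting error only. Of the 3 genes most like Bmp4, Bmp6, Grem1 and Bmper by Pearson r, 1 each was among the 3 most like by Spearman rho, and 0 for Fst.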
